A study of Homo sapiens with 6 samples.

Results

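TRPM2, TRPM2-AS, LINC02575, TSPEAR, TSPEAR-AS1 and TSPEAR-AS2 are neighbouring genes in band 21q22.3 at the end of the long arm of human chromosome 21. These 6 genes were taken by their Ensembl identifiers from a table of 674 genes that the authors deposited as common to their comparisons of 2 imatinib-resistant K562 lines with the parent. The rule therefore took genes already selected on these fold changes, and the values below are a description without a test. K562 is an established leukaemia line carrying the BCR-ABL1 fusion kinase, and imatinib blocks that kinase. The groups were the resistant lines K562-IR1 and K562-IR2, both cultured with imatinib present at all times, and K562-WT, the imatinib-sensitive parent. Each group had 2 libraries, the other one marked as a repeat, so their spread may be technical. The sources used here do not say whether a resistant line is a single clone, and resistance cannot be told apart from drug exposure.

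The values are log2 fold changes in 2 columns, 1 for each resistant line. The column names say neither which line a column belongs to nor which group was the numerator. The columns are called the first and the second, and positive and negative refer to the sign of a fold. Whether a positive value means more RNA in the resistant lines or in WT cannot be read from the table. No value per library, expression level, standard error or p-value was used here, so the depth is unknown and no fold carries an error. In bulk RNA, fewer expressing cells and less RNA per cell cannot be told apart. K562 cells are of erythroid character. Of 12 erythroid markers 5 were listed, all negative, while 74.3% of all listed genes were positive. Without levels, the labelled cell type could not be checked.

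TRPM2 encodes a calcium-permeable cation channel of the plasma membrane. ADP-ribose opens it together with calcium, through a domain at its end that resembles the ADP-ribose hydrolase NUDT9, and oxidative stress supplies that ligand. It is best known in neutrophils, monocytes and other phagocytes. TRPM2-AS is a long non-coding RNA transcribed from the opposite strand inside TRPM2 and has been studied in several cancers. TSPEAR encodes a secreted protein with a laminin G domain and EAR repeats, and inherited defects of it affect hair, teeth and hearing in humans. TSPEAR-AS1 and TSPEAR-AS2 are non-coding RNAs on its opposite strand. LINC02575 is an intergenic non-coding RNA in the gap between both coding genes.

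The promoter windows below were chosen because they show where RefSeq places the starts of TRPM2 and its antisense partner. Use of these starts in K562 cells was not measured here. RefSeq (GRCh38.p14, a later build than the authors' hg19) gave 6 windows for 4 of the 6 genes, each covering 250 bases before and 50 after a start. TRPM2 had 3 of them. The upstream window, chr21:44349891-44350190 on the plus strand, lies at the beginning of the gene, and capitals mark its CpG dinucleotides.
TRPM2 upstream: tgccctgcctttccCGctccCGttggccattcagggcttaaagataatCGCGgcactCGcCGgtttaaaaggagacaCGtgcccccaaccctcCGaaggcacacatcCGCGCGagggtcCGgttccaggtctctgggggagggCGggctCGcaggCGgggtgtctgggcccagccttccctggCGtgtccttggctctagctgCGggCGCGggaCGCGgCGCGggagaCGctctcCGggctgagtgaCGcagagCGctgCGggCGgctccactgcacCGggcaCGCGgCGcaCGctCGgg
The internal window of TRPM2, chr21:44425400-44425699 on the plus strand, begins 75.5 kb downstream of the upstream one. The window of TRPM2-AS, chr21:44425514-44425813 on the minus strand, runs the other way across the same place. Capitals in both mark the 186 bases that they share, which are reverse complements of each other.
TRPM2 internal: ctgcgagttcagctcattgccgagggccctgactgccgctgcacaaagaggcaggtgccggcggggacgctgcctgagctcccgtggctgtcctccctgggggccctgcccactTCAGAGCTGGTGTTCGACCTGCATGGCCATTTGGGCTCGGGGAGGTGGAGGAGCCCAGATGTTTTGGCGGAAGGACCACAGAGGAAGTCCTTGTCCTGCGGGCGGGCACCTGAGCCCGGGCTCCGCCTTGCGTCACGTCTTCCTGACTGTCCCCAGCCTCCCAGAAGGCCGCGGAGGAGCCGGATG
TRPM2-AS: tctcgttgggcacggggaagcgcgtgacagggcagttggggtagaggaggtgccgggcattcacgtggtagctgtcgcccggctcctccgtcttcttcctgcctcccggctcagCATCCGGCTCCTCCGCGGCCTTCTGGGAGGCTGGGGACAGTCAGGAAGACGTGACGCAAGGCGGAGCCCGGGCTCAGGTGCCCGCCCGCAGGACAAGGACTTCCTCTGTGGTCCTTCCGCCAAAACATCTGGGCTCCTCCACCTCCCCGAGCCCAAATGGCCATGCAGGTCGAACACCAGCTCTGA
The RefSeq start of TRPM2-AS and the internal RefSeq start of TRPM2 lie 87 bases apart and point away from each other. For contrast, the window of TSPEAR-AS1, chr21:44505794-44506093 on the plus strand, is shown with its CpG dinucleotides in capitals.
TSPEAR-AS1: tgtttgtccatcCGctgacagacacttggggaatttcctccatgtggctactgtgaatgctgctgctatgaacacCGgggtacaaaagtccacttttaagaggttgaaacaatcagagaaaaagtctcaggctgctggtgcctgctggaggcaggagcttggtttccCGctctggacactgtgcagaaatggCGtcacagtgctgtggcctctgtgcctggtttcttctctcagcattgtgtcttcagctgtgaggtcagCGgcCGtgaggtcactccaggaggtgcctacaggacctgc

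TRPM2-AS (ENSG00000230061) had the largest single fold of the locus. In the authors' deposited table it had a log2 fold change of 4.39 in the first column, and of 6.44 in the second. As linear folds these are 20.9 and 86.9. By the mean of both columns TRPM2-AS took rank 5 of the 674 genes and rank 3 of the 107 listed long non-coding RNAs. The antisense RNA was thus near the top of the table, more so in the second column. TRPM2 itself (ENSG00000142185) stood at 3.50 and 3.14 on the log2 scale of the authors' deposited table, which is 11.3-fold and 8.82-fold. The channel gene ranked 122 in the table and 59 among its 480 protein-coding genes. Both genes were thus positive in both columns, with the antisense RNA further from 0 than the channel in each.

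LINC02575 (ENSG00000228709) followed TRPM2-AS, at 4.64 and 5.49 on the log2 scale of the authors' deposited table. Its folds of 24.9 and 45.1 put it at rank 9 by the mean of both columns and at rank 6 among the long non-coding RNAs. It had the highest value of the locus in the first column. TRPM2-AS and LINC02575 were the members at 16-fold or more in both columns.

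TSPEAR (ENSG00000175894) had the smallest mean fold of the locus, namely 2.14 and 3.03 on the log2 scale of the authors' deposited table. These are folds of 4.40 and 8.16, and TSPEAR ranked 264 in the table and 160 among protein-coding genes. TSPEAR-AS2 (ENSG00000182912) was given 3.55 and 4.02 by the authors' deposited table, 11.7-fold and 16.3-fold, and ranked 73. It stood above the gene it overlaps in both columns. The authors' deposited table gave TSPEAR-AS1 (ENSG00000235890) a log2 fold change of 1.88 in the first column, the lowest value of the locus, and of 4.18 in the second. Its folds were 3.68 and 18.1, and its rank by the mean was 168. Of both antisense RNAs at TSPEAR, TSPEAR-AS2 was therefore close to even across the columns, while TSPEAR-AS1 was near the bottom of the table's range in one of them. The smallest absolute log2 fold change of the whole table was 1.50 in each column, a property of the values and not a stated filter.

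**Figure D1:**
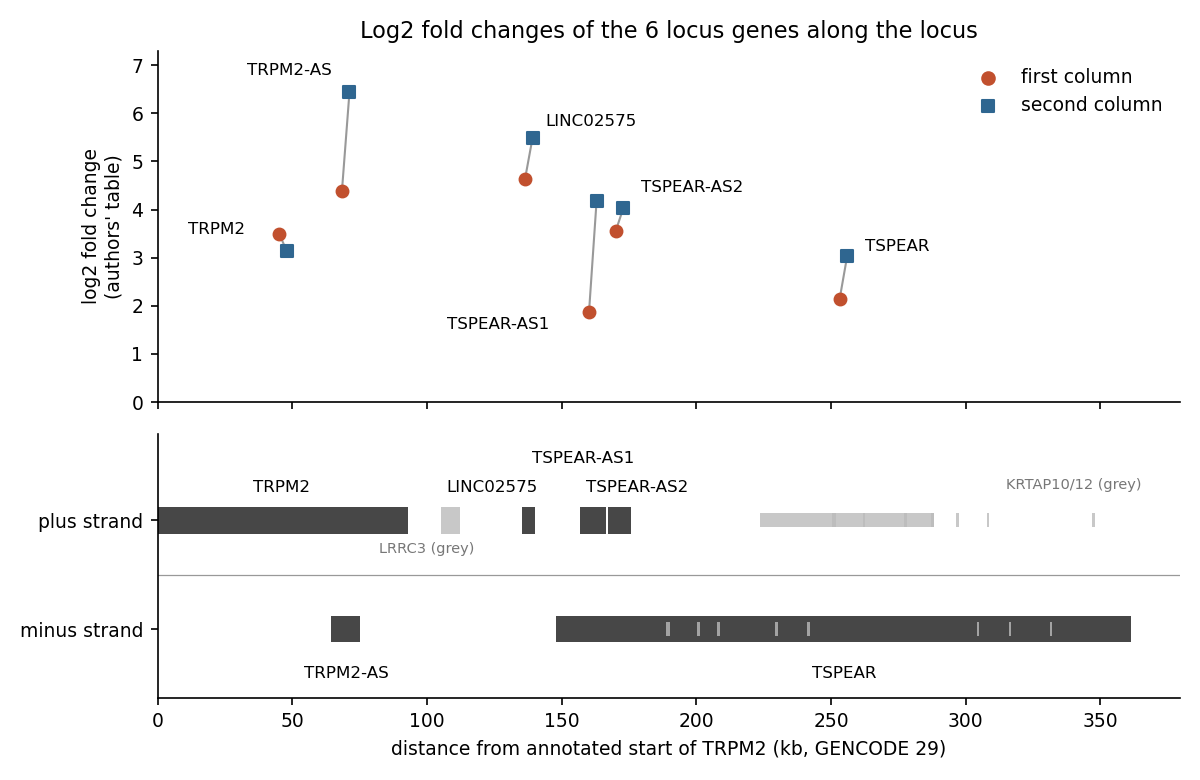
The upper panel gives the log2 fold changes of the 6 genes in the authors' table, placed side by side about the middle of each gene (circles, first column; squares, second column), and the lower panel gives the gene bodies by strand in kb from the annotated start of TRPM2, with listed genes in dark grey and unlisted coding genes in light grey. All values lie above 0, from 1.88 for TSPEAR-AS1 to 6.44 for TRPM2-AS, and TRPM2 is the gene whose square lies below its circle.

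All 6 members were positive in both columns, as were 74.3% of all listed genes, and the remaining genes were negative in both. At least 8-fold in both columns was reached by 4 members, TRPM2, TRPM2-AS, LINC02575 and TSPEAR-AS2, against 15.0% of all listed genes. The same 4 passed it in the first column, against 17.2% of the table. In the second column all 6 passed, against 34.7%. Since the members come from this table by these values, nothing is read from those counts. The median over members of the mean log2 fold change was 3.55 in the authors' deposited table, beside 2.64 for the 495 other positive genes.

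**Figure D2:**
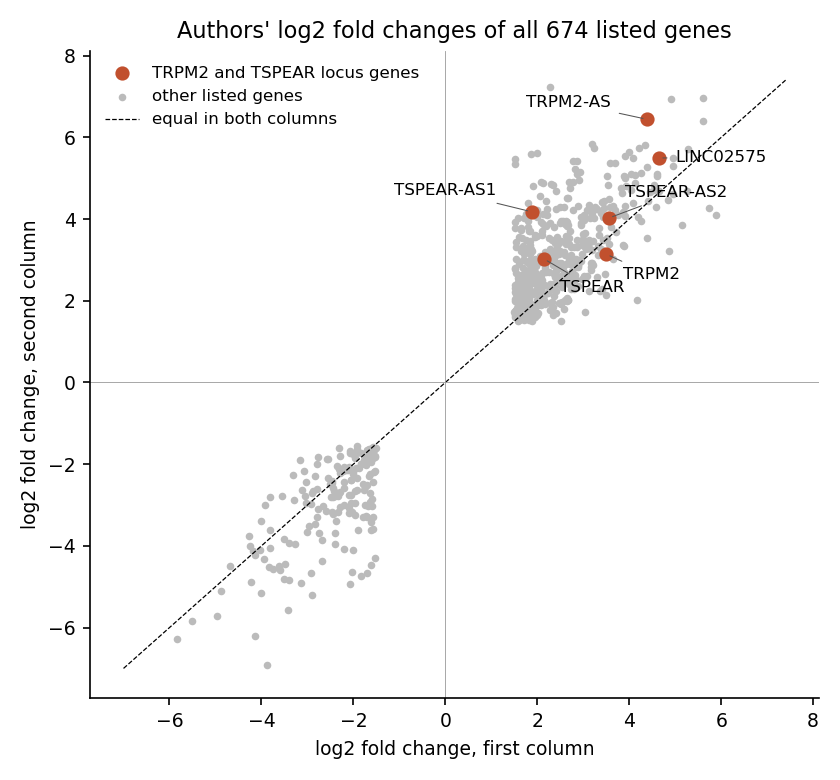
Each point is 1 of the 674 genes, with its log2 fold change in the first column on the x axis and in the second on the y axis, locus genes in red and the dashed line at equal values. TRPM2-AS (4.39 and 6.44) and LINC02575 (4.64 and 5.49) sit near the upper right end, TRPM2 sits below the line and the other 5 above it.

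The members shared 1 sign, as every listed gene had the same sign in both columns and all members were positive. They did differ in the balance between the columns. The difference given here is the size of the log2 fold change in the first column minus that in the second. For TRPM2 it was 0.36, so its fold was 1.28 times as large in the first column. TRPM2 was the only member of the 6 with the larger fold there. The channel gene and its antisense RNA were therefore tilted towards different columns. TRPM2 held rank 62 among the 157 listed genes of that kind. The other 5 members had the larger fold in the second column, as did 76.7% of all listed genes. The difference was -2.30 for TSPEAR-AS1 and -2.05 for TRPM2-AS, so the second fold was 4.92 and 4.15 times the first. By the width of the gap in that direction they took ranks 30 and 45 of the table. The wide gaps belonged to an antisense RNA of each coding gene. LINC02575 at -0.85, TSPEAR at -0.89 and TSPEAR-AS2 at -0.47 lay closer to the median over all genes of -0.47. The columns share their WT libraries, and no error was in hand, so none of these gaps was tested.

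Non-coding genes of the whole table also had wider gaps than coding ones. The median difference was -1.45 over the 4 non-coding members and -0.94 over the 80 other positive long non-coding RNAs. Over both coding members it was -0.27, against -0.33 over the 350 other positive protein-coding genes. The first column held TRPM2-AS, LINC02575 and TSPEAR-AS2 above the median of 2.29 of those other non-coding RNAs and TSPEAR-AS1 below it, on the log2 scale of the authors' deposited table. In the second column all 4 non-coding members were above the corresponding median of 3.90 in the authors' deposited table. TRPM2 was above the medians of the other positive coding genes, 2.26 and 2.68 in the authors' deposited table, in both columns. TSPEAR was below the first of these and above the second.

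**Figure D3:**
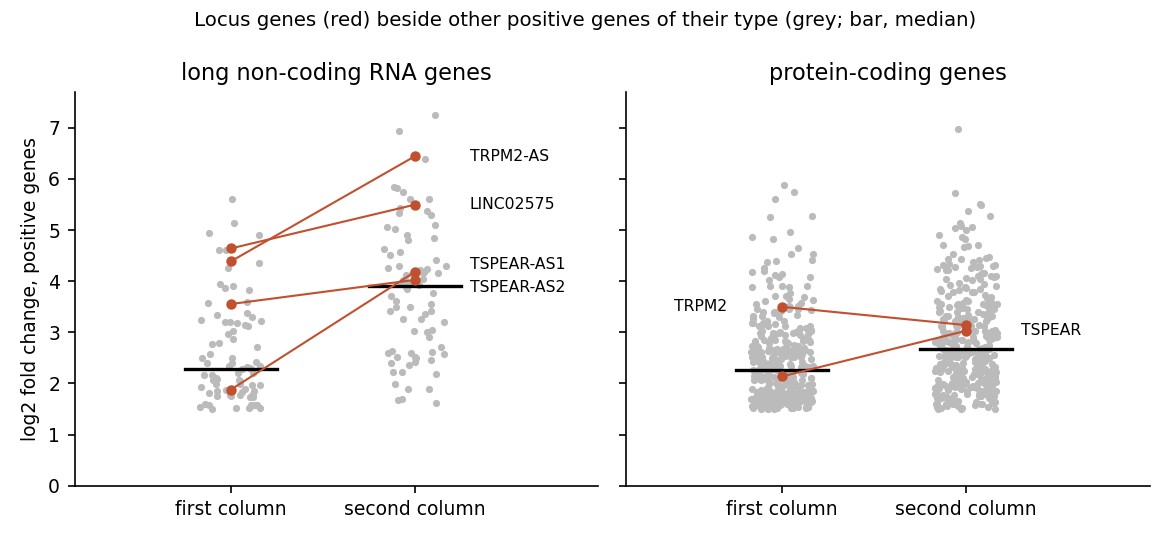
Log2 fold changes of positive genes in the first and second column, long non-coding RNAs on the left and protein-coding genes on the right, with each locus gene as a red line, other genes as grey points and their median as a black bar. The lines of TRPM2-AS and TSPEAR-AS1 are the steepest, and that of TRPM2 (3.50 and 3.14) slopes down.

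By GENCODE 29, on GRCh38, the 6 genes span 361 kb, with TRPM2, LINC02575, TSPEAR-AS1 and TSPEAR-AS2 on the plus strand and TRPM2-AS and TSPEAR on the minus strand. LINC02575 begins 42.5 kb beyond the end of TRPM2 and ends 7.60 kb before the 3' end of TSPEAR. TSPEAR-AS1 and TSPEAR-AS2 lie in a row inside the 3' part of TSPEAR, with 640 bases between them. The span holds 34 annotated genes, and 28 of them had no row in the table used here. Among those were LRRC3, a leucine-rich repeat gene between TRPM2 and LINC02575, and all 16 coding KRTAP10 and KRTAP12 genes for hair keratin-associated proteins, which lie within TSPEAR. Of the 7 annotated long non-coding RNAs of the span 4 were listed, and of its 19 coding genes 2.

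Outside the span, none of the 24 annotated genes in the 500 kb before TRPM2 and none of the 17 in the 500 kb after TSPEAR had a row in the table. The stretch before TRPM2 includes AIRE, the thymic autoimmune regulator, PFKL, a phosphofructokinase, and ICOSLG, a T cell costimulatory ligand. The stretch after TSPEAR includes ITGB2, the leukocyte integrin beta chain, and SUMO3, a small protein modifier. A gene without a row may have missed the authors' selection in either comparison or have been too low to test, and these cases cannot be told apart. The list of 39 neighbours in this band, which holds these genes, had 0 listed members. Over the whole of chromosome 21, 13 of 833 annotated genes were listed. Absences from stretches or lists of this size therefore say little, and no boundary of the locus is read from them. Joining listed genes that lie within 0.5 Mb of each other gave a run of exactly these 6, and 8 of the 431 runs in the table had 6 genes or more. Joining within 1 Mb added COL18A1-AS2, an antisense RNA at the collagen gene COL18A1, and the non-coding RNA ENSG00000228235, for a run of 8 with 7 positive.

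The rest of chromosome 21 did not share the sign of the locus as a whole. Of its 7 other listed genes 2 were positive and 5 negative, while 74.3% of all listed genes were positive. The members were chosen with their values known and 7 genes are few, so the contrast is a description. RBM11, an RNA-binding splicing factor gene, was positive, with 2.42 and 3.13 as its log2 folds in the authors' deposited table. For ENSG00000228235 the authors' deposited table gave 1.52 and 5.34. All negative genes but COL18A1-AS2 lay together near the centromere, far from TRPM2. With RBM11 they formed a run of 5 listed genes, 1 positive and 4 negative. SAMSN1, an adaptor that restrains B cell activation, was negative, and the authors' deposited table put it at -1.90 and -3.61. Close to it in the genome, the pseudogene POLR2CP1 had values of -2.91 and -4.66 on the log2 scale of the authors' deposited table. Its neighbour AF127936.1, a non-coding RNA, was given -4.01 and -5.16 by the authors' deposited table, and ENSG00000232884 beside it was given -2.89 and -5.20. COL18A1-AS2 had the smallest mean fold of the chromosome, and the authors' deposited table put it at -1.66 and -1.71. The previous listed gene before TRPM2 lies 29.6 Mb away, in the run that holds RBM11 and SAMSN1.

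TRPM2-AS lies wholly inside the body of TRPM2, yet their annotated exons share 0 bases. TSPEAR and TSPEAR-AS1 share 320 exonic bases, which is 7.16% of the exonic length of TSPEAR and 13.6% of that of TSPEAR-AS1. TSPEAR and TSPEAR-AS2 share 16 exonic bases, or 0.529% of the exons of TSPEAR-AS2. The sources used here do not give the strand setting of the authors' counting. Without strand, reads of such shared bases cannot be assigned to a gene or to its antisense partner. The same holds for unspliced RNA of 1 gene across the exons of its partner, as with TRPM2 across TRPM2-AS. LINC02575 is the member that overlaps no other.

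TRPM2 had 8 annotated transcripts in GENCODE 29, of which 2 start within 1 kb of the start of TRPM2-AS. These are the transcripts TRPM2-206 and TRPM2-208, and they cover the end of the gene alone. The other 6 start further upstream. A fold per gene adds all of them, so the share of the internal start printed above in the value for TRPM2 was not measured. The same holds for the antisense RNAs, with 2 transcripts for TSPEAR-AS1 and 3 for TSPEAR-AS2.

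In the whole table, 18 pairs of a protein-coding gene and a long non-coding RNA overlapped on opposite strands. Both partners had the same sign in 18 of them. The same was true of all 36 opposite-strand overlapping pairs of any gene types, and 74.3% of all listed genes were positive. The shared sign is therefore not particular to coding genes with antisense RNAs. The locus contributed 3 of these pairs, and of the 15 others 11 were positive and 4 negative. In all 3 locus pairs the antisense RNA had the larger mean fold. The log2 excess was 2.10 for TRPM2-AS over TRPM2, 1.21 for TSPEAR-AS2 over TSPEAR and 0.44 for TSPEAR-AS1 over TSPEAR. In the first column alone TSPEAR-AS1, at 1.88, was below TSPEAR, at 2.14. The pairs of TSPEAR-AS1 and TSPEAR-AS2 also share TSPEAR as their coding gene. Among the other 15 pairs the antisense RNA was the larger in 8, with a median difference in size of 0.11 and a range from -1.93 to 1.47. By the mean of both columns, the pair of TRPM2-AS and TRPM2 thus had the widest excess of the 18 pairs. In the first column alone it did not. There TRPM2-AS stood at 4.39 and TRPM2 at 3.50, while SCIRT stood at 3.84 and its coding partner LINC03040 at 1.81. The pair of TRPM2-AS and TRPM2 is also 1 of the 5 pairs without a shared exonic base. The locus was chosen with these folds known, so this order is a description.

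**Figure D4:**
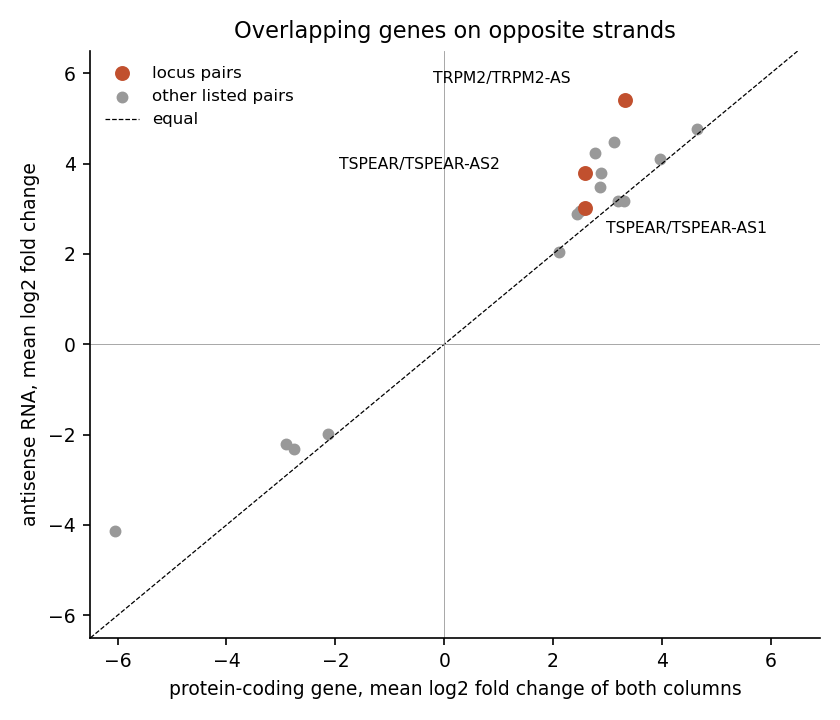
Mean log2 fold change of both columns for the antisense RNA (y axis) against the protein-coding gene it overlaps (x axis) in 18 pairs, with the 3 locus pairs in red, others in grey and the dashed line at equal values. All pairs have 2 positive or 2 negative values, and the TRPM2/TRPM2-AS pair stands 2.10 above the line.

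The promoter windows of the locus ranged from rich to poor in CpG. The upstream window of TRPM2 held 35 CpG dinucleotides, and its ratio of observed to expected CpG of 0.944 exceeded 85.9% of the 35114 RefSeq windows, whose median was 0.579. The internal TRPM2 window, with 19 CpG and a ratio of 0.560, and the TRPM2-AS window, with 22 and 0.674, lay near that median. That median lies between peaks of the distribution, in bins from 0.15 (2143 windows) and from 0.85 (2262). The bin from 0.45 held 867, so a ratio near the median is intermediate and not the most common. The second TRPM2 window (0.235) and those of TSPEAR-AS1 (0.280) and TSPEAR-AS2 (0.252) were poor in CpG, with 6 each. Of the 3 antisense RNAs, all with positive folds, TRPM2-AS thus had a start near the median in CpG. Those of TSPEAR-AS1 and TSPEAR-AS2 were alike and poor in it.

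**Figure D5:**
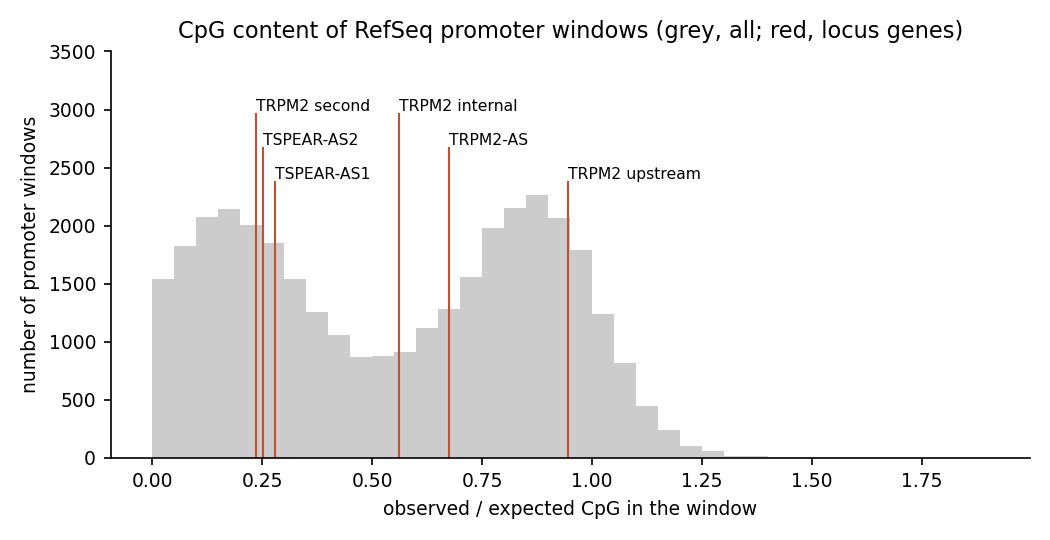
Histogram of the ratio of observed to expected CpG over 35114 RefSeq promoter windows (grey), with red lines at the 6 windows of the locus. The lines run from 0.235 for the second window of TRPM2 to 0.944 for its upstream window.

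Motifs were searched on both strands in these 6 windows. The GC box GGGCGG was in 3 of them, the upstream and internal windows of TRPM2 and that of TRPM2-AS, and in 45.0% of all windows. The internal and antisense windows hold 1 each, and it is the same hexamer, inside the stretch that they share. The GATA motif AGATAA was in the upstream window of TRPM2 alone among the 6, and in 10.3% of all windows. The TATA box TATAAA and the STAT motif TTCNNNGAA were in 0 of the 6, against 11.5% and 7.66% of all windows. None of these motifs overlaps another in the locus windows. A match is a run of letters and no measured binding site, and a missing match says nothing about a factor.

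Few relatives of the locus genes were in the table. TRPM2 was the only one of the 8 TRPM channel genes listed. None of 14 genes of TRPM2 activation and ADP-ribose metabolism had a row, among them PARP1 and PARG, which make and break down poly(ADP-ribose), and CD38, which forms ADP-ribose from NAD. None of 21 calcium entry and release genes had one, such as ORAI1, STIM1 and ITPR1. None of the 5 other EAR repeat genes, LGI1 to LGI4 and ADGRV1, was listed either. The table holds 674 genes in all, with 13 of the 833 annotated genes of chromosome 21. Lists this short can be empty at that share, so nothing is read from these absences.

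Markers of phagocytes, where TRPM2 is best known, had both signs. Of 12 granulocyte and monocyte markers 3 were listed, 2 positive and 1 negative. Over all listed genes 74.3% were positive, so nothing is read from this count. TYROBP, a signalling adaptor, was given 3.50 and 2.13 by the authors' deposited table. CD33, a myeloid surface lectin, had 1.81 and 2.05 in the authors' deposited table. ITGAM, the integrin partner of ITGB2, was negative, at -1.58 and -2.44 on the log2 scale of the authors' deposited table. The defining granule and monocyte genes MPO, ELANE and CD14 had no row, and the part of such cells or programmes in the TRPM2 value was not tested. Of 8 lymphocyte markers 1 was listed and of 6 fibroblast markers 2, all positive, as were 74.3% of all listed genes.

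The genes whose pair of values lay nearest to that of TRPM2 among 590 others with a proper symbol were FKBP10, a collagen chaperone (distance 0.17 on the log2 scale), DOK2, an adaptor of tyrosine kinases (0.17), and PIK3AP1, a phosphoinositide 3-kinase adaptor (0.19). For TSPEAR they were NRGN, a calmodulin-binding protein (0.031), DDX53, a testis RNA helicase (0.033), and INHBE, an inhibin subunit (0.046). This likeness rests on 2 values per gene, and all 6 of these genes lie on other chromosomes.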

How the data were processed

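RNA sequencing of 6 K562 libraries in 3 groups of 2 was summarised by the authors. The table used holds log2 fold changes that the authors deposited, 2 columns for 674 genes. The submitters' processing notes name DESeq2 3.5, Subread, featureCounts and HISAT2 2.1.0 and the build hg19, with neither roles nor settings. The label protocols name neither strand handling nor thresholds.

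Counts, ranks, medians, linear folds and gaps between columns were computed with Python 3.11.15, pandas 2.3.3 and numpy 2.4.6. No test was run, since the table holds no errors or libraries. The planned count model, its alternatives and the leave-one-out fits were not run for that reason. Symbols matched 654 identifiers, and GENCODE 29 (GRCh38) matched 657, used for gene type, order, distance and exon overlap, while 17 were not in it. Promoter windows came from RefSeq, GRCh38.p14. The promoter comparison, the exon overlaps and the antisense pairs were added after the values had been seen. Members and lists were chosen with earlier results of these data known. Genes named were the members, other chromosome 21 genes, list members and the 3 genes nearest to TRPM2 and to TSPEAR. Unlisted genes named as examples of a list were chosen afterwards. A few listed genes go without values here.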

Additional observations from a re-analysis of the deposited data

How the results depend on the processing

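All values rest on the authors' fold changes, with no depth, error or library to vary. No paired analysis was possible because the table holds no values per library, and for the same reason leaving out each replicate, another count normalization and a low-count filter were not run. Since all members are positive, smaller sets of them could not differ in sign: 5 remained at a log2 fold change of at least 2 in both columns and 4 at 3. Leaving out members that overlap another kept 1, LINC02575. The number past 8-fold in both columns was 4, beside 2 at 16-fold. The median log2 fold change of the members, 3.55, was 3.53 by the first column and 4.10 by the second, 2.95 for the coding members, 4.43 for the non-coding ones, and 3.87 as a mean over members. On chromosome 21, 8 of 13 listed genes were positive, and 2 of 7 without the members, beside 74.3% of all listed genes. The run of listed genes held 8 genes within 1 Mb, 6 within 0.5 Mb and 8 within 2 Mb. Ranks by the first and the second column were 68 and 212 for TRPM2, 24 and 4 for TRPM2-AS, 15 and 16 for LINC02575, 279 and 228 for TSPEAR, 345 and 91 for TSPEAR-AS1, and 63 and 110 for TSPEAR-AS2. By the smaller value of both columns they were 86, 19, 9, 256, 330 and 56 in the same order of genes. The 3 genes nearest to TRPM2 and to TSPEAR were the same by the largest difference over the columns.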
